A study of Mus musculus with 4 samples.

Results

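Hox genes encode homeodomain transcription factors, and 39 of them stand among the 32285 genes that were counted in single cells of injured mouse muscle. Members were chosen by symbol alone, as every gene named Hoxa, Hoxb, Hoxc or Hoxd followed only by digits, so that no measured value entered the choice. The study profiled tibial muscle of *Nse-Bmp4* mice by single cell RNA sequencing on a droplet platform, in which each captured transcript is counted once as a unique molecular identifier (UMI). The mice are a model of heterotopic ossification (HO), the formation of bone in soft tissue. All 4 groups shared the *Nse-Bmp4* genotype, the C57BL/6 strain and an age of 6 to 8 weeks, and they differed in time after cardiotoxin injury of the muscle. They were Uninjured muscle and muscle taken 1 day, 3 days or 7 days after the injury (days post injury, dpi). The neuron specific enolase promoter drives *Bmp4* in these animals, also in the Uninjured group, and wild-type muscle was not analysed here. Each group was 1 library made from 3 pooled muscles after collagenase digestion. A difference between time points therefore cannot be told apart from a difference between libraries, no test between time points was possible, and the intervals given below are exact 95% intervals that cover counting error only.

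Hox genes lie in clusters in which the order of the genes along the chromosome follows the order in which they are used along the body axis, and genes with the same number in different clusters are paralogs of one ancestral gene. Low numbered paralogs mark the hindbrain and neck, and high numbered paralogs mark the trunk, the tail and the far end of the limb. In limb mesenchyme the HoxA and HoxD clusters pattern the successive limb segments, with *Hoxa11* and *Hoxd11* tied to the forearm and lower leg and *Hoxa13* and *Hoxd13* to the hand and foot. Adult fibroblasts and stromal cells keep a Hox pattern that reflects the position from which they came. Some members, *Hoxa9* and *Hoxb4* among them, also act in blood stem and progenitor cells.

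In the GENCODE annotation of GRCm38, the 11 HoxA members lie on chromosome 6 between 52155590 and 52260880 on the minus strand. The 10 HoxB members lie on chromosome 11 between 96194316 and 96368256, the 9 HoxC members on chromosome 15 between 102921103 and 103036852, and the 9 HoxD members on chromosome 2 between 74668310 and 74765142, all on the plus strand. Each cluster spans 96.8 to 174 kb. Neighbouring members share exon sequence in places, and whether counting used the strand is not given in the sources used here. *Hoxd3* and *Hoxd4* share 388 exon bases and *Hoxc5* and *Hoxc10* share 166. Antisense genes cover 35.0% of the exon bases of *Hoxa11*, 52.9% of those of *Hoxb3* and 27.3% of those of *Hoxb2*, so the counts of these members carry that uncertainty.

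RefSeq promoters on GRCm38.p6 were matched for 22 of the 39 members. The sequences below are shown because the HoxD members *Hoxd4*, *Hoxd8*, *Hoxd9* and *Hoxd11* were all higher at 3 dpi in the mesenchymal cells described later, while *Hoxb4* of the HoxB cluster was lower. Each is the 250 bases before an annotated start, 5′ to 3′ on the gene's strand, with capitals marking any letters of 4 searched motifs on either strand: TATAAA (the TATA box), TTTATG (a site of the kind bound by CDX factors), TGATNNAT (the joint site of PBX and HOX proteins) and CCAAT (the CCAAT box). The starts of *Hoxd11* are 2 in number. The regions are chr2:74721728-74721977 for *Hoxd4*, chr2:74704365-74704614 for *Hoxd8*, chr2:74697513-74697762 for *Hoxd9*, chr2:74679308-74679557 and chr2:74682073-74682322 for *Hoxd11*, and chr11:96318017-96318266 for *Hoxb4*, all on the plus strand.
Hoxd4: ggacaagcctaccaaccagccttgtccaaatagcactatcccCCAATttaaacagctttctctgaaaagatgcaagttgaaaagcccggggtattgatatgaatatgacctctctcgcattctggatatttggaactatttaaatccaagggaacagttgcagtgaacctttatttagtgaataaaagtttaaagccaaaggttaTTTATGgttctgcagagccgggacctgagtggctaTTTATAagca
Hoxd8: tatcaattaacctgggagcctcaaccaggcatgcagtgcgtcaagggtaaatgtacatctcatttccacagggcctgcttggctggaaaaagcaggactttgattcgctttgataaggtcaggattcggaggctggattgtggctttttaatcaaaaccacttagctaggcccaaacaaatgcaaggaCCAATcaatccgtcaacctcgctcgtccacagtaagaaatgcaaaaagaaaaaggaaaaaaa
Hoxd9: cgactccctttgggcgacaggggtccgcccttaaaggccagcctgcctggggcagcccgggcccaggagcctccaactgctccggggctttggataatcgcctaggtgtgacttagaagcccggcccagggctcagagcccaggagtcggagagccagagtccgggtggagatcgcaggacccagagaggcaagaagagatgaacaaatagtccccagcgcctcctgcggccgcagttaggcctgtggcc
Hoxd11, upstream start: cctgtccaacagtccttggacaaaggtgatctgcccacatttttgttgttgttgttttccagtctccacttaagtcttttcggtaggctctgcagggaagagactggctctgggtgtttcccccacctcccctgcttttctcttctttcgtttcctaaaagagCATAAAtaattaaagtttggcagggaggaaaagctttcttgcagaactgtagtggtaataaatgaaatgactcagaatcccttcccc
Hoxd11, downstream start: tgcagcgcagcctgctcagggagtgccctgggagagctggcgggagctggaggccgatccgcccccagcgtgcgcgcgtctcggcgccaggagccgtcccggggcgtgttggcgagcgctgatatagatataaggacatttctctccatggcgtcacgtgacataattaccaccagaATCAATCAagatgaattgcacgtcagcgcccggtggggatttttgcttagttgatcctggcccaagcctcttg
Hoxb4: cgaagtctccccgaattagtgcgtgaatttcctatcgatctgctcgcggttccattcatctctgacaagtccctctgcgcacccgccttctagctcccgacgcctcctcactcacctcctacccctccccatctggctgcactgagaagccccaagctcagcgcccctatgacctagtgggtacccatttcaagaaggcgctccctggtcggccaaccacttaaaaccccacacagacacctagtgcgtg

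None of the motifs searched was present in all of the HoxD promoters shown. *Hoxd4* held a TATA box, a TTTATG site and a CCAAT box, *Hoxd8* held a CCAAT box only, *Hoxd9* and *Hoxb4* held none of the motifs, and the *Hoxd11* windows held a TTTATG site and a TGATNNAT site. GC content was 40.4% for *Hoxd4*, 44.4% for *Hoxd8*, 65.2% for *Hoxd9* and 58.0% for *Hoxb4*. Among the 24 Hox promoters of these members a CCAAT box occurred in 14, or 58.3%, against 33.8% of all 32851 promoters of the same length. TTTATG occurred in 20.8% of Hox promoters and 10.8% of all, TGATNNAT in 16.7% and 7.68%, and TATAAA in 16.7% and 12.4%. A match describes letters in a window and not a bound site.

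The libraries held 11722 to 23752 cells and 91146335 to 129007669 UMIs, and 52853 of 62665 cells passed the quality filters. The median number of UMIs per kept cell was 8638 in Uninjured muscle, 5896 at 1 dpi, 4338 at 3 dpi and 3049 at 7 dpi. Any pair of libraries shared 30 to 95 cell barcodes. Cells were assigned to classes by gates on 6 marker genes per class, and a class below means cells that passed its gate. For each class a further marker that no gate used was checked, and it was highest in its own class for 13 of 15 classes. The exceptions were *Col1a2*, which was higher in tenocyte-like than in mesenchymal cells, and *Comp*, which was higher in chondrocyte-like than in tenocyte-like cells. The margin was narrow for *Cebpe* in granulocyte progenitors over neutrophils and for *Lck* in T cells over NK cells. Cells with no class made up 2.86% of the kept cells in Uninjured muscle and 17.5% at 3 dpi.

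Hox transcripts came mainly from mesenchymal cells. Of 65744 Hox UMIs in kept cells, 56157 came from cells that passed the mesenchymal gate (*Pdgfra*, *Prrx1*, *Dcn*, *Lum*, *Pcolce* and *Col3a1*) or the chondrocyte-like and tenocyte-like gates nested in it. Those gates also held 32304 of the 52853 kept cells. Their median depth, at 9152, 7973, 5647 and 3464 UMIs in Uninjured muscle and at 1, 3 and 7 dpi, was above that of all kept cells. A share of cells is therefore no full background for a share of UMIs. Per UMI, endothelial and myogenic cells had a higher Hox level in every library, as given below. The myogenic and mesenchymal counting intervals overlapped at 7 dpi. Mural cells were also higher in Uninjured muscle and at 7 dpi, where their counting interval overlapped the mesenchymal one as well. At least 1 UMI was found for 38 members, and the digit gene *Hoxd12* had none. In mesenchymal cells 30 members had at least 50 UMIs over the 4 libraries and 12 had at least 1000. The 9 members under 50 UMIs there were *Hoxa13*, *Hoxb1*, *Hoxb8*, *Hoxb13*, *Hoxc12*, *Hoxd1*, *Hoxd3*, *Hoxd12* and *Hoxd13*. The mesenchymal share differed between members. It was 90.0% of the UMIs of *Hoxa10*, 88.9% of those of *Hoxc10* and 92.3% of those of *Hoxd11*, but 61.0% of those of *Hoxb3* and 48.2% of those of *Hoxb4*.

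**Figure D1:**
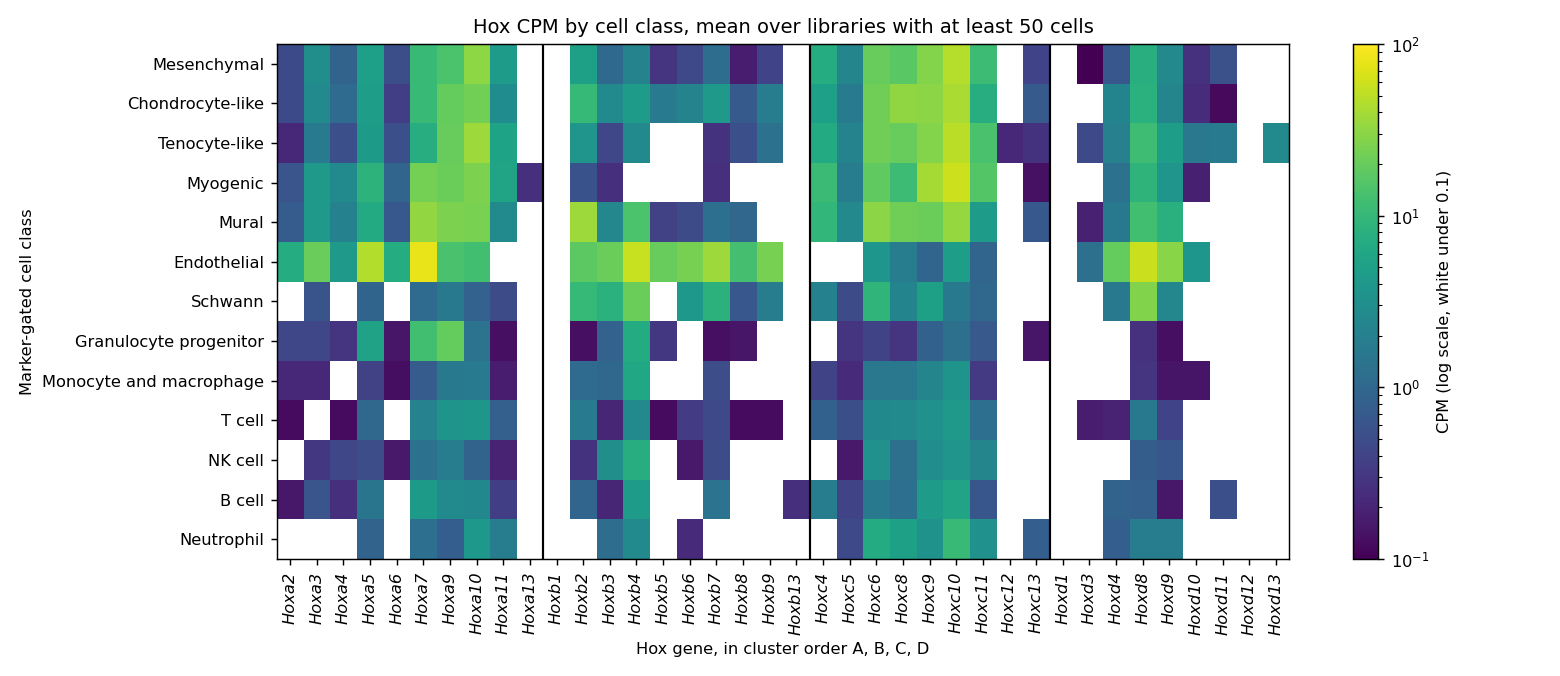
Mean level of Hox members (columns, by cluster and paralog number) in each gated cell class (rows), as counts per 1000000 UMIs (CPM) averaged over the libraries with at least 50 cells of that class, on a log colour scale that is white under 0.1 CPM. Hoxc6 to Hoxc10 were bright (high) in mesenchymal, chondrocyte-like, tenocyte-like, myogenic and mural cells and darker in endothelial and immune cells, while HoxB members were bright in endothelial cells and mostly white in myogenic cells.

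The mesenchymal Hox pattern was dominated by HoxC and HoxA members with high paralog numbers in every library. The unit of a level is CPM: the summed UMIs of a gene in a class are divided by all UMIs of that class and multiplied by 1000000. Summed over all members, the level was 245 CPM (242 to 249) in 8289 Uninjured cells, 229.8 CPM (225 to 235) in 3591 cells at 1 dpi, 171 CPM (167 to 174) in 6058 cells at 3 dpi and 263 CPM (259 to 267) in 10566 cells at 7 dpi. HoxC members supplied 60.4%, 59.6%, 57.8% and 57.2% of these UMIs in that order, and HoxA members supplied 32.5%, 33.9%, 29.9% and 28.8%. HoxB members supplied 4.66%, 2.21%, 1.54% and 9.15%, and HoxD members 2.46%, 4.32%, 10.8% and 4.93%. The HoxC and HoxA shares thus moved little, while the HoxB and HoxD shares moved in opposite directions up to 3 dpi.

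**Figure D2:**
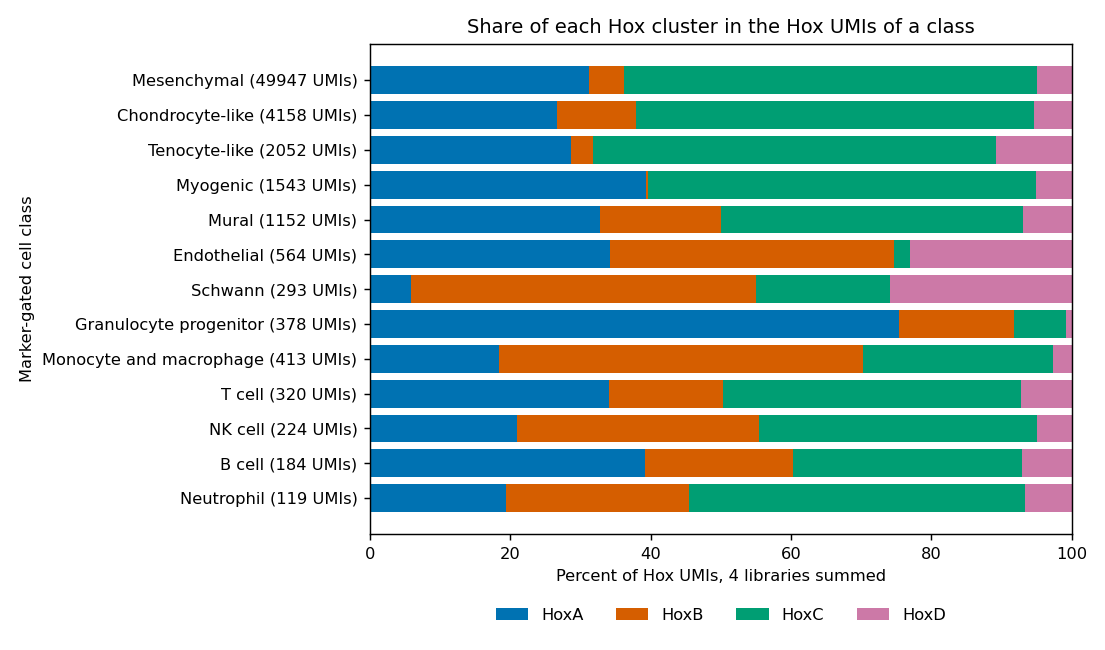
Percentage of Hox UMIs that came from the HoxA, HoxB, HoxC and HoxD clusters (stacked bars) in each gated class with the 4 libraries summed, with the number of Hox UMIs behind each bar in its label. HoxC made up most of the mesenchymal bar and 2.30% of the endothelial bar, where HoxB made up 40.4% of 564 UMIs.

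*Hoxc10*, which is used in the hindlimb and the lumbar spinal cord, was the member with the most UMIs in mesenchymal cells. Its level was 49.9 CPM (48.3 to 51.5) in Uninjured muscle, 49.4 CPM at 1 dpi, 38.3 CPM at 3 dpi and 48.5 CPM at 7 dpi, and a UMI of it was present in 33.5%, 31.7%, 24.2% and 18.9% of cells as depth per cell decreased. By CPM, *Hoxa10* at 33.4 and *Hoxc9* at 33.0 came after *Hoxc10* in Uninjured muscle. Members were also put on CPM per kb of exon. Each captured transcript is counted once, so this scale lowers genes with long exons and is no correction. On that scale *Hoxc10* led in Uninjured muscle with 26.1 CPM per kb, followed by its neighbour *Hoxc9* with 13.6 and the limb gene *Hoxa10* with 10.2. The trunk genes *Hoxc6*, *Hoxc8* and *Hoxa7* followed with 9.66, 7.40 and 5.12 CPM per kb. At 7 dpi the values were 25.4 for *Hoxc10*, 12.7 for *Hoxc9*, 10.0 for *Hoxc6* and 8.77 for *Hoxa10*. *Hoxc6* thus stood above *Hoxa10* per kb in that library, but below it by CPM, at 24.2 against 28.7. Counted per kb, HoxC members supplied 68.0% of the Uninjured signal, against 60.4% of the UMIs.

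By paralog number, members 9 to 11 supplied 60.4% of mesenchymal Hox UMIs in Uninjured muscle, 63.5% at 1 dpi, 65.6% at 3 dpi and 57.7% at 7 dpi. Members 5 to 8 supplied 30.0%, 28.4%, 26.7% and 30.0%, and members 1 to 4, which mark the head end of the axis, supplied 9.54%, 8.02%, 7.16% and 11.9%. Members 12 and 13, the genes of the hand and foot, supplied 0.084%, 0.107%, 0.543% and 0.444%, from 16, 8, 49 and 64 UMIs. In the injured libraries, though not in Uninjured muscle, most of the latter were *Hoxc13*, a gene also used in hair and nail. It had 4, 5, 34 and 42 UMIs in the order of the libraries. *Hoxa13* had 0, 1, 12 and 2 UMIs and *Hoxc12* had 2, 0, 0 and 20. *Hoxd13* was the exception to a low Uninjured count, with 10, 2, 3 and 0 UMIs. Tenocyte-like cells of Uninjured muscle held 7 more UMIs of *Hoxd13*, in 4 of 84 cells.

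At 1 dpi the sum over all Hox members in mesenchymal cells stood close to the Uninjured level, at a ratio of 0.937 (0.912 to 0.963), and 3 of 23 members with at least 50 UMIs over both libraries lay past 2-fold, all of them lower. Over all genes with that many UMIs 11.9% lay past 2-fold. *Hoxa9* went from 18.5 to 9.0 CPM, a ratio of 0.485 (0.427 to 0.551). *Hoxb2*, a hindbrain gene, went from 6.31 to 1.85 CPM, a ratio of 0.293 (0.22 to 0.384), and *Hoxb7* went from 0.914 to 0.308 CPM, a ratio of 0.337 (0.155 to 0.656) that rests on 10 UMIs at 1 dpi. The HoxB sum was 0.445 (0.375 to 0.526) of the Uninjured level, and the HoxD sum was 1.65 (1.42 to 1.9) times it. *Hoxa11* with a ratio of 1.93 (1.57 to 2.36) and *Hoxd9* with 1.94 (1.44 to 2.6) stayed just inside the limit, and *Hoxc10* stood at 0.991 (0.934 to 1.05). With each cell thinned to 1000 UMIs, 2 members had both enough UMIs and a ratio past 2-fold. Before that requirement on UMIs, thinned ratios past 2-fold lay on both sides. *Hoxa9* and *Hoxb2* were lower, at 0.366 and 0.294. *Hoxd8* was at 2.41, from 1.58, and *Hoxd9* at 2.13. Any HoxD UMI was left in 0.446% of Uninjured and 1.14% of 1 dpi thinned cells, so these HoxD ratios rest on few UMIs. *Hoxa4* went from 1.14 to 0.463, and the 1 dpi count of *Hoxb7* was 0. *Hoxa9* lay near the limit, with 0.506 under quality limits on linear values and 0.513 under a mesenchymal gate on *Prrx1* and *Col1a1*. In thinned cells its ratio was 0.366.

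At 3 dpi the sum was lower, at 0.697 (0.68 to 0.715) of the Uninjured level, and HoxB and HoxD members lay on opposite sides of it. Of 25 members with enough UMIs, 5 were higher and 10 were lower past 2-fold, against a background of 21.0% of all genes in either direction. In cells thinned to 1000 UMIs each, 4 members in place of 15 had both enough UMIs and a ratio past 2-fold. The ratio was 0.64 for the HoxA sum, 0.231 (0.191 to 0.276) for HoxB, 0.667 for HoxC and 3.07 (2.74 to 3.43) for HoxD. The median log2 ratio was -0.71 over these members and 0.10 over all genes tested. The 5 higher members were *Hoxa11* and the HoxD members *Hoxd4*, *Hoxd8*, *Hoxd9* and *Hoxd11*. The 10 lower members were *Hoxa2*, *Hoxa6*, *Hoxa7*, *Hoxa9*, *Hoxb2*, *Hoxb3*, *Hoxb4*, *Hoxb7*, *Hoxc5* and *Hoxc8*. *Hoxd4* and *Hoxd11*, with 14 and 21 UMIs in Uninjured muscle, had enough only by being higher at 3 dpi, with 59 and 69. In the other direction *Hoxa2*, *Hoxa6*, *Hoxb3* and *Hoxb7* had 9, 14, 21 and 5 UMIs at 3 dpi. These members had enough only through Uninjured counts of 55, 51, 71 and 71. The counts of 5 higher and 10 lower members are thus partly set by that requirement. The 3 comparisons with Uninjured muscle share that library, so they are not independent of each other.

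**Figure D3:**
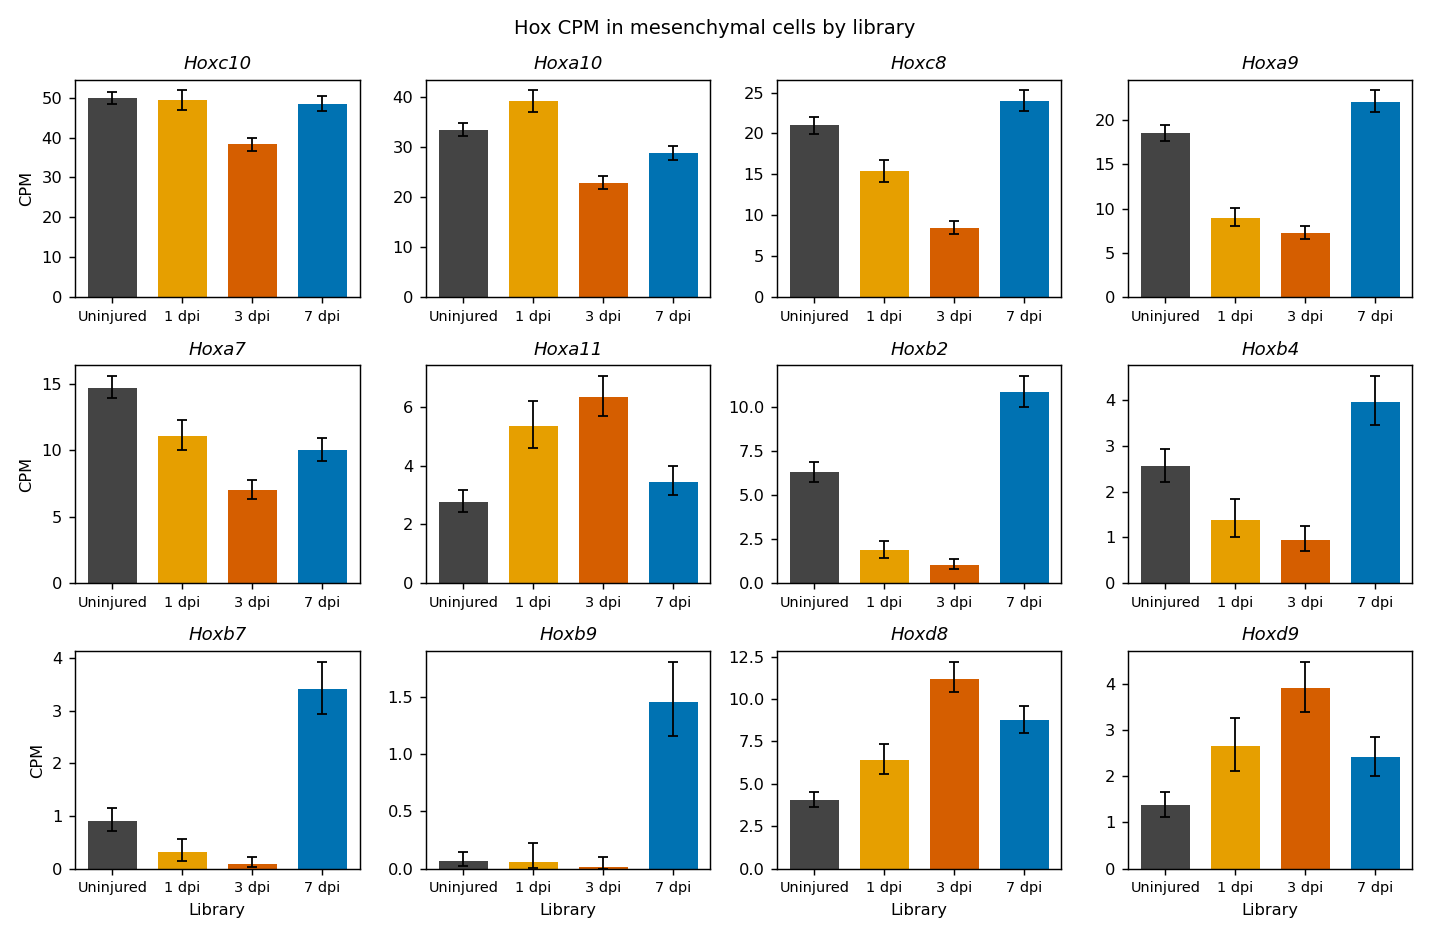
Level of 12 Hox members in mesenchymal cells of each library (bars, CPM from summed UMIs, linear axes from 0), with exact 95% Poisson intervals that cover counting error only and 1 library per bar. Hoxa11, Hoxd8 and Hoxd9 were highest at 3 dpi, Hoxb2, Hoxb4 and Hoxb7 were lowest at 3 dpi and highest at 7 dpi, and Hoxc10 ranged from 38.3 to 49.9 CPM.

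HoxD members carried the gain at 3 dpi. *Hoxd8*, a trunk gene of the cluster, was at 4.06 CPM in Uninjured muscle, 6.41 at 1 dpi, 11.2 at 3 dpi and 8.76 at 7 dpi, from 315, 208, 593 and 481 UMIs. The ratio at 3 dpi was 2.77 (2.41 to 3.19). *Hoxd9*, which acts in the proximal limb, was at 1.37, 2.65, 3.90 and 2.41 CPM, and its ratio at 3 dpi was 2.86 (2.25 to 3.65). Both were highest at 3 dpi, with intervals apart from those of Uninjured muscle. *Hoxd11* was at 0.27, 0.37, 1.31 and 0.273 CPM, from 21, 12, 69 and 15 UMIs, so it was high in the 3 dpi library alone. Its ratio at 3 dpi was 4.84 (2.93 to 8.3), and the ratio of 7 dpi to 3 dpi was 0.209 (0.111 to 0.369). *Hoxd4* was at 0.18, 0.277, 1.12 and 1.00 CPM and kept its level at 7 dpi, with ratios of 6.2 (3.42 to 12) at 3 dpi and 5.56 (3.05 to 10.8) at 7 dpi. *Hoxd10* had 2, 5, 34 and 14 UMIs, too few for the limit at 3 dpi. *Hoxa11*, the HoxA member that moved with them, was at 2.78, 5.36, 6.35 and 3.46 CPM, with a ratio of 2.28 (1.92 to 2.72) at 3 dpi. The 3 dpi ratios of *Hoxd8*, *Hoxd9*, *Hoxd11* and *Hoxa11* stayed past 2-fold under each alternative run, and so did that of *Hoxd4* except in thinned cells, where it had 0 UMIs in Uninjured muscle and no ratio. Any HoxD UMI was left in 0.446% of Uninjured and 1.34% of 3 dpi thinned cells. The thinned ratios of these HoxD members therefore rest on few UMIs.

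The HoxD gain at 3 dpi was present in both mesenchymal subgates. The sum of HoxD was at 4.83 CPM in Uninjured and 11.7 CPM in 3 dpi adventitial cells (*Pi16*, *Dpp4* and *Sema3c*), and at 6.30 and 18.1 CPM in interstitial cells (*Col15a1*, *Smoc2* and *Cxcl14*). At 3 dpi it was 29.0 CPM, or 21.0% of Hox UMIs, in 222 cells of a gate for osteochondral progenitors (*Lrrc15*, *Tnn* and *Adam12*), which were deep cells with a median of 21699 UMIs. *Hoxd11* was at 4.58 CPM there from 21 UMIs, and at 0.681 and 0.789 CPM in adventitial and interstitial cells. The 69 *Hoxd11* UMIs of 3 dpi mesenchymal cells thus came in part from few, deep cells, whose part in the ratio was not tested.

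Members that were lower at 3 dpi came from 3 clusters. *Hoxa9* was at 18.5, 9.0, 7.24 and 22.1 CPM in the order of the libraries, with a ratio of 0.391 (0.348 to 0.438) at 3 dpi and of 3.05 (2.72 to 3.43) from 3 to 7 dpi. *Hoxc8* was at 21.0, 15.4, 8.49 and 24.0 CPM, with 0.405 (0.364 to 0.45) at 3 dpi and 2.82 (2.54 to 3.15) from 3 to 7 dpi. Both genes were therefore low at 3 dpi and at or above the Uninjured level at 7 dpi. *Hoxa7*, a trunk gene, was at 14.7, 11.1, 7.01 and 10.0 CPM, a ratio of 0.476 (0.423 to 0.536) at 3 dpi. In thinned cells the 3 dpi ratios were 0.627 for *Hoxc8*, 0.525 for *Hoxa7* and 0.577 for *Hoxc5*, short of the limit, and 0.457 for *Hoxa9*.

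HoxB members showed the widest swing. *Hoxb2* was at 6.31, 1.85, 1.02 and 10.9 CPM, from 490, 60, 54 and 598 UMIs. *Hoxb4*, a gene of the neck and of blood stem cells, was at 2.56, 1.39, 0.948 and 3.97 CPM, and the trunk gene *Hoxb7* was at 0.914, 0.308, 0.0948 and 3.41 CPM. All 3 were lowest at 3 dpi and highest at 7 dpi. The ratios at 3 dpi were 0.162 (0.12 to 0.215) for *Hoxb2*, 0.37 (0.266 to 0.506) for *Hoxb4* and 0.104 (0.0326 to 0.253) for *Hoxb7*. From 3 to 7 dpi the ratios were 10.6 (8.05 to 14.3) for *Hoxb2* and 36.0 (15.1 to 112) for *Hoxb7*, and the HoxB sum went from 2.63 to 24.1 CPM. In thinned cells the 3 dpi ratios were 0.336 for *Hoxb2*, 0.258 for *Hoxb7*, 0.655 for *Hoxb3* and 0.774 for *Hoxb4*, so the last pair no longer lay past 2-fold.

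At 7 dpi the sum was 1.07 (1.05 to 1.1) times the Uninjured level, and 8 of 27 members with enough UMIs were higher past 2-fold and none was lower, against 27.2% of all genes in either direction and 16.4% in the higher direction. They included *Hoxa4*, the HoxB members *Hoxb3*, *Hoxb5*, *Hoxb7* and *Hoxb9*, and the HoxD members *Hoxd4* and *Hoxd8*. *Hoxb5*, *Hoxb9* and *Hoxd4* had 9, 5 and 14 UMIs in Uninjured muscle and 42, 80 and 55 at 7 dpi. Given their Uninjured counts, these members could have enough UMIs only by being higher at 7 dpi. The split of 8 higher and none lower is therefore partly set by that requirement. *Hoxb3*, *Hoxb7* and *Hoxd8* had enough from Uninjured muscle alone, with 71, 71 and 315 UMIs. *Hoxb9*, a gene of the lower trunk, had 5, 2, 1 and 80 UMIs in the order of the libraries, which is 0.0644 and 1.46 CPM in Uninjured and 7 dpi cells and a ratio of 22.6 (9.31 to 71.6). *Hoxb5* had 9, 4, 6 and 42 UMIs, a ratio of 6.6 (3.17 to 15.4), and *Hoxb8* had 2, 2, 1 and 32. These neighbours had few UMIs before 7 dpi. *Hoxa4* went from 0.515 to 1.82 CPM, a ratio of 3.54 (2.43 to 5.24). *Hoxc5* came nearest to the lower limit, with a ratio of 0.524. The median log2 ratio was 0.32 over the 27 members and 0.07 over all genes tested. In thinned cells the 7 dpi ratios were 1.68 for *Hoxa4*, 1.23 for *Hoxb3*, 2.36 for *Hoxb7* and 3.60 for *Hoxd8*. There 1 member had both enough UMIs and a ratio past 2-fold. Thinning removed most UMIs, and the ratios of *Hoxa4* and *Hoxb3* also fell short of 2-fold. The part of each in the lower count was not tested.

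Among further trunk and hindlimb members, *Hoxc6* was at 23.3, 21.0, 13 and 24.2 CPM in the order of the libraries, *Hoxc9* at 33.0, 26.8, 20.9 and 31.0, and *Hoxa10* at 33.4, 39.1, 22.7 and 28.7. All 3 were lowest at 3 dpi, inside the 2-fold limit. *Hoxc11* was at 8.82, 13, 10.8 and 13.5 CPM, highest at 7 dpi. The neck gene *Hoxc4* was at 8.36, 9.03, 5.12 and 6.12 CPM, its neighbour *Hoxc5* at 3.62, 2.22, 1.55 and 1.90, and *Hoxa5*, a gene of the forelimb level and the lung, at 4.64, 7.70, 3.79 and 3.79. *Hoxa3* was at 3.40, 3.36, 1.78 and 3.61 CPM. *Hoxa2*, which sets branchial arch identity, had 55, 19, 9 and 24 UMIs, and its ratio at 3 dpi was 0.241 (0.105 to 0.491). *Hoxa6* had 51, 19, 14 and 32 UMIs, with a ratio of 0.404 (0.206 to 0.741) at 3 dpi that turned to 1.06 in thinned cells. *Hoxd3* had 0, 0, 9 and 13 UMIs, *Hoxd1* had 0, 0, 2 and 2, and *Hoxb1* had 0, 1, 0 and 1. *Hoxb13* had none in mesenchymal cells.

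The HoxB pattern was also present within the mesenchymal subgates. In adventitial cells the HoxB sum was at 15.9 CPM in Uninjured muscle, 6.85 at 1 dpi, 6.92 at 3 dpi and 37.6 at 7 dpi. In interstitial cells it was at 7.87, 4.20, 1.58 and 14.8 CPM. Both gates were therefore low after injury and above their Uninjured level at 7 dpi, and adventitial cells were higher than interstitial cells in every library. In Uninjured muscle the ratio of interstitial to adventitial cells was 0.494 (0.426 to 0.572) for HoxB, 0.501 (0.411 to 0.611) for *Hoxb2* and 0.57 for *Hoxb4*. *Hoxb7*, at 0.34 and 1.59 CPM, was the 1 of 20 members past 2-fold, with a ratio of 0.214 (0.106 to 0.402), against 17.1% of all genes, and 0.104 in thinned cells. *Hoxc10* went the other way, at 60.8 CPM in interstitial and 36.4 in adventitial cells, a ratio of 1.67 (1.55 to 1.8). The ratio for HoxB was 0.228 (0.148 to 0.347) at 3 dpi and 0.393 (0.316 to 0.49) at 7 dpi.

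Within a library, cells that carried HoxB transcripts also differed in other Hox members. Mesenchymal cells with a UMI of any of *Hoxb3* to *Hoxb9* numbered 333 in Uninjured muscle, 83 at 1 dpi, 80 at 3 dpi and 561 at 7 dpi. This split was chosen after the values were seen, and it is given as a description. *Hoxc8* was at 53.5 CPM in cells with and 19.4 CPM in cells without such a UMI in Uninjured muscle, a ratio of 2.76 (2.37 to 3.21), and the ratios were 3.41 (2.44 to 4.65), 4.52 (2.89 to 6.77) and 2.0 (1.72 to 2.31) at 1, 3 and 7 dpi. The Uninjured ratio for *Hoxc8* was 2.8 (2.25 to 3.45) within adventitial and 2.96 (2.27 to 3.8) within interstitial cells. *Hoxc11*, a gene of the lower leg and tail end, had a ratio of 0.179 (0.0656 to 0.392) in Uninjured muscle, 0.337 at 1 dpi, 1.37 at 3 dpi and 0.642 (0.466 to 0.866) at 7 dpi. *Hoxa11* had 1 UMI in the carrying cells of Uninjured muscle, a ratio of 0.0944. *Hoxc10* was even between them, at ratios of 1.12, 1.28, 1.19 and 1.07. In the 7 dpi library the carrying cells were also deeper, with a median of 8074 UMIs against 3017, while the medians were 10011 and 9095 in Uninjured muscle.

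**Figure D4:**
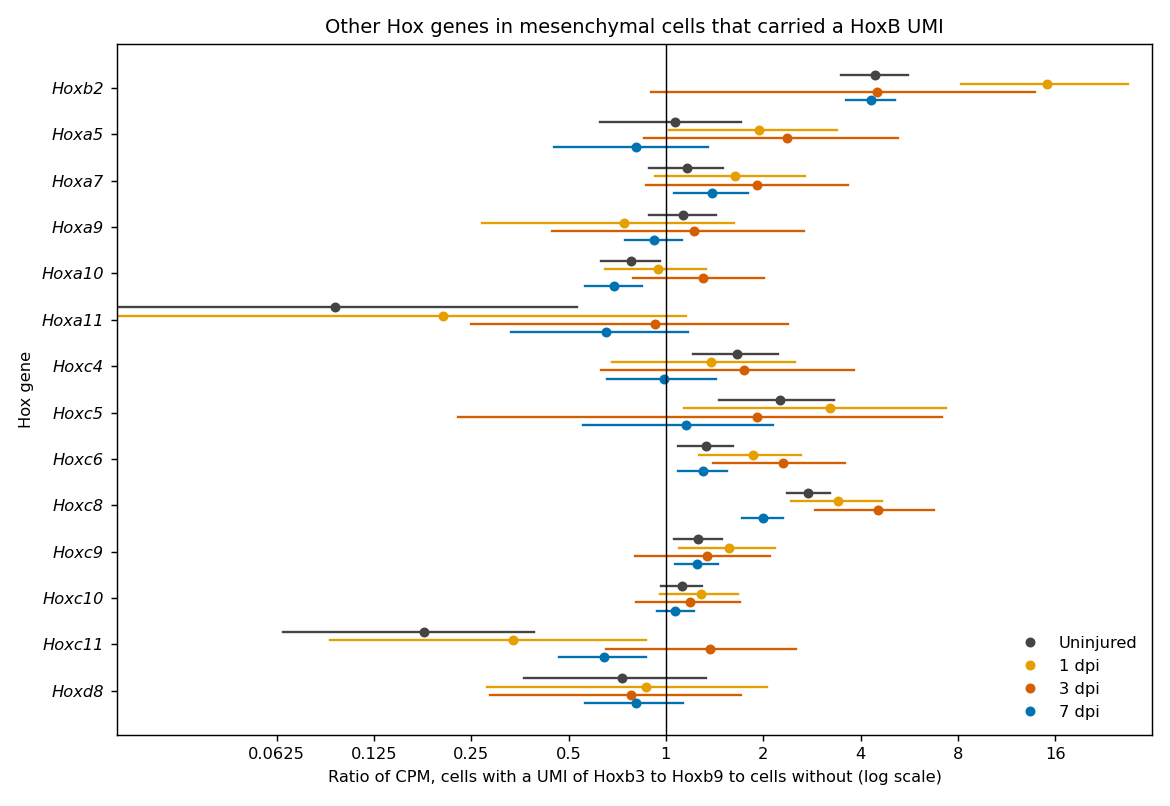
Ratio of the level (CPM, log axis) in mesenchymal cells with a UMI of any of Hoxb3 to Hoxb9 to that in mesenchymal cells without one, for 14 genes in each of the 4 libraries, with exact 95% intervals for counting error. Bars that reach the left edge continue past it, and a gene with 0 UMIs in the carrying cells is not drawn. Hoxc8 lay above 1 in all 4 libraries (2.76, 3.41, 4.52 and 2.0), and Hoxc10 lay close to 1.

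Cells that carried *Hoxd8* were likewise higher in its neighbours. Mesenchymal cells with a *Hoxd8* UMI numbered 290, 184, 486 and 443 in the order of the libraries, again a split chosen after the values were seen. The ratio of *Hoxd9* in cells with to cells without *Hoxd8* was 3.9 (2.14 to 6.69) in Uninjured muscle, 2.71 at 1 dpi, 2.61 at 3 dpi and 2.87 at 7 dpi. For *Hoxd4* it was 3.06 at 3 dpi and 3.23 at 7 dpi. *Hoxc8* went the other way at 3 dpi, with a ratio of 0.383 (0.253 to 0.558). The carrying cells were deeper, with a median of 10716 UMIs against 9100 in Uninjured muscle, 9618 against 7878 at 1 dpi, 15972 against 5254 at 3 dpi and 8168 against 3063 at 7 dpi, and the part of depth in these ratios was not tested.

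Skeletal cells were compared with mesenchymal cells of the same library. The chondrocyte-like gate (*Acan*, *Hapln1*, *Cnmd*, *Col9a1*, *Matn3* and *Epyc*) held 2885 cells at 7 dpi, with a Hox sum of 247 CPM (239.8 to 255) against 263 CPM in mesenchymal cells, a ratio of 0.94 (0.908 to 0.974). Past 2-fold were 3 of 26 members, all higher, against 10.9% of all genes in either direction. These were *Hoxb5* with a ratio of 2.25 (1.35 to 3.7), *Hoxb6* with 2.24 (1.43 to 3.46) and *Hoxd4* with 2.26 (1.45 to 3.47), each from few UMIs. The abundant members stayed nearer to the mesenchymal level. *Hoxc8* was at 31.5 and 24.0 CPM, a ratio of 1.31 (1.19 to 1.46), and *Hoxc10* had a ratio of 0.864. *Hoxc11* was at 7.43 and 13.5 CPM, a ratio of 0.551 (0.452 to 0.667). In thinned cells the ratio of *Hoxb5* was 0.496, which turned its direction, and that of *Hoxb6* was 4.96.

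Tenocyte-like cells (*Tnmd*, *Scx*, *Mkx*, *Thbs4*, *Kera* and *Fmod*), 716 at 7 dpi, had a Hox sum of 249 CPM but less HoxB and more HoxD than mesenchymal cells of that library. HoxB was at 8.01 CPM against 24.1, a ratio of 0.333 (0.245 to 0.442), and HoxD was at 26.1 CPM against 13, a ratio of 2.02 (1.69 to 2.4). Of 24 members 2 were higher and 5 lower past 2-fold, against 7.22% of all genes. The higher members were *Hoxd4* with 2.77 (1.51 to 4.85) and *Hoxd9* with 2.17 (1.43 to 3.22). The lower ones were *Hoxb2* with 0.3 (0.182 to 0.467), *Hoxb4* with 0.329 (0.14 to 0.66), *Hoxb7* with 0.24 (0.077 to 0.57), *Hoxb6* with 0.166 (0.00413 to 0.966) from 1 UMI and *Hoxb9* with 0.448 (0.119 to 1.19) from 4 UMIs. In thinned cells *Hoxb7* stood at 1.34, *Hoxb4* at 0.925 and *Hoxd9* at 6.53, and *Hoxb6*, *Hoxb9* and *Hoxd4* had 0 UMIs, so the calls of single members depend on few UMIs. Tenocyte-like cells of Uninjured muscle, 1 dpi and 3 dpi numbered 84, 30 and 85, with HoxD at 17.0 CPM (9.49 to 28.0), 75.7 CPM (44.9 to 119.6) and 30.8 CPM (20.6 to 44.2). HoxB was not clearly lower in them, with a ratio to mesenchymal cells of 1.48 (0.827 to 2.46) in Uninjured muscle and 0.805 (0.0966 to 2.96) from 2 UMIs at 3 dpi.

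**Figure D5:**
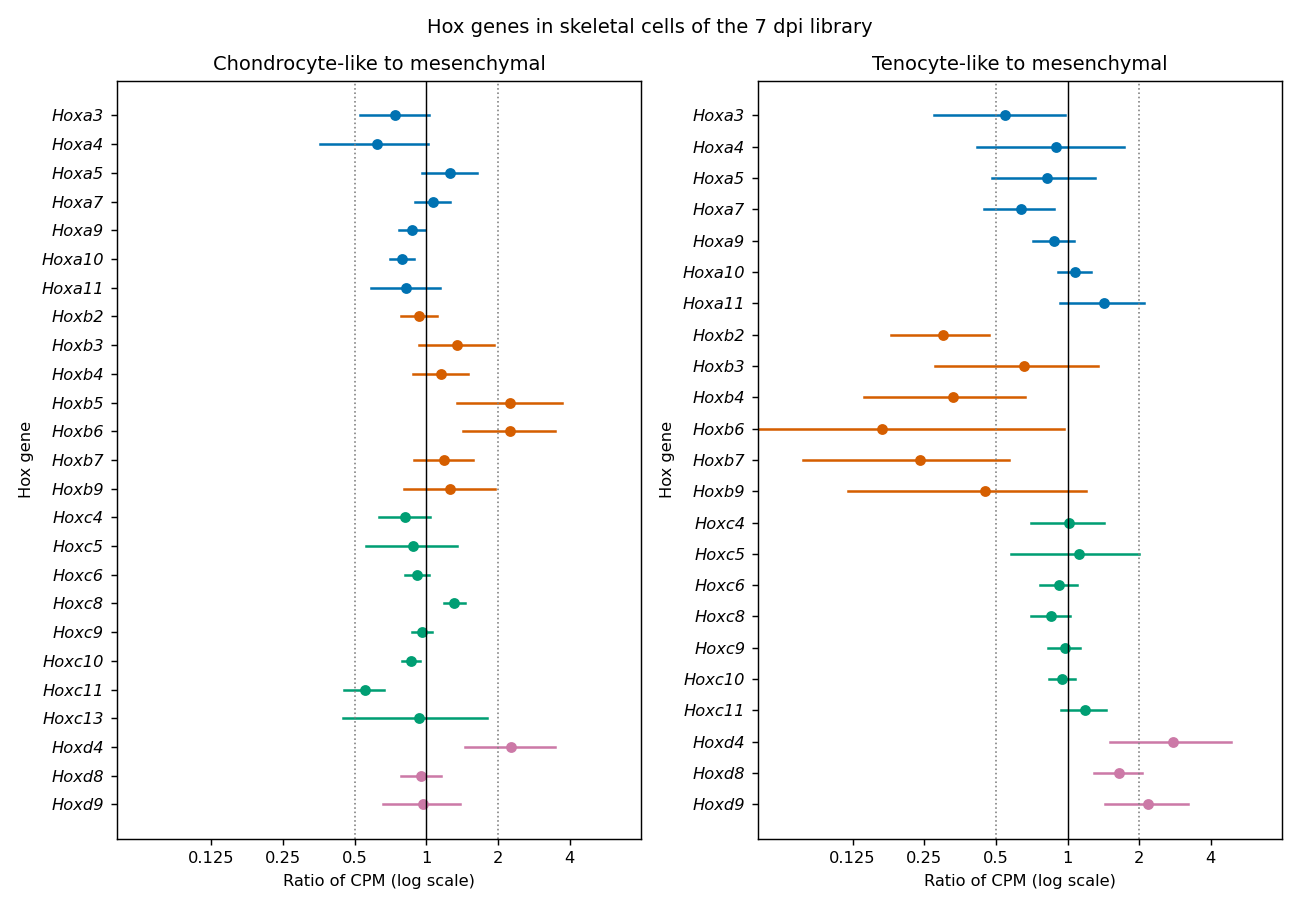
Ratio of the level (CPM, log axis) in chondrocyte-like and tenocyte-like cells to that in mesenchymal cells of the 7 dpi library, for Hox members with at least 50 UMIs over both sides, with exact 95% intervals for counting error, dotted lines at 0.5 and 2, and colours that mark the cluster. Hoxb2 was at 0.3 in tenocyte-like cells, Hoxd4 was above 2 in both classes, and bars that reach the left edge continue past it.

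Endothelial cells (*Pecam1*, *Cdh5*, *Kdr*, *Flt1*, *Egfl7* and *Emcn*) had a Hox pattern with almost no HoxC. They were few, at 22, 58, 116 and 80 cells in the order of the libraries, and their Hox sum was 556 CPM (424 to 715), 632 CPM (539.6 to 736), 463 CPM (396 to 539) and 482 CPM (412 to 559), above the mesenchymal sum each time. HoxC had 0, 0, 2 and 11 UMIs, against 148, 137, 98.8 and 150.3 CPM in mesenchymal cells, and was at least 12-fold lower at 1 dpi with a floor of 3 UMIs. HoxB was at 204, 236, 216 and 186 CPM. Over all libraries HoxA supplied 34.2%, HoxB 40.4%, HoxC 2.30% and HoxD 23.0% of 564 UMIs. A HoxC UMI was present in 0%, 0%, 1.72% and 7.5% of endothelial cells, with a median depth of 4178, 3718, 2510 and 2808 UMIs. In T cells the shares were 2.40%, 2.29%, 1.76% and 5.62% at medians of 3613, 4108, 2456 and 2048 UMIs. The counting intervals of the endothelial and T cell shares overlapped in each library. The source of the HoxC UMIs in either class was not tested.

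Single endothelial members showed the same split. At 3 dpi, 8 of 19 members were higher and 5 lower than in mesenchymal cells past 2-fold, against 34.5% of all genes between these classes. *Hoxb4* had the largest ratio, 64.4 (37.1 to 108), from 22 UMIs in 116 cells, and its UMIs were 0, 18, 22 and 14 in the order of the libraries. *Hoxa5*, which restrains vessel growth, had a ratio of 11.7 (6.56 to 19.5), *Hoxa7* had 7.91 (4.78 to 12.4), and *Hoxa3*, *Hoxb2*, *Hoxd4*, *Hoxa9* and *Hoxd8* had 12.5, 16.3, 19.8, 3.83 and 3.46. In thinned cells these ratios were 27.0 for *Hoxb4*, 4.24 for *Hoxa5*, 4.60 for *Hoxa7* and 8.32 for *Hoxb2*, past 2-fold but from few UMIs. The thinned endothelial cells were 108, of which 13.9% held a HoxA UMI and 15.7% a HoxB UMI. The lower members were *Hoxa10* with 0.488, *Hoxc6* with 0.214, *Hoxc8* with 0.327, and *Hoxc9* and *Hoxc10* with 0 UMIs. *Hoxc10* was at least 4.33-fold lower at 1 dpi and 4.60-fold lower at 3 dpi, and its ratio at 7 dpi was 0.29.

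Myogenic cells (*Pax7*, *Myf5*, *Myod1*, *Myog*, *Cdh15* and *Des*) shared the HoxC and HoxA pattern of mesenchymal cells but almost lacked HoxB. They numbered 177, 82, 263 and 172, and their Hox sum was 282, 292, 203 and 286 CPM. HoxB had 0, 0, 1 and 4 UMIs, or 0.324% of 1543 Hox UMIs. *Hoxc10* was at 68.3, 79.1, 44.0 and 45.4 CPM. At 3 dpi *Hoxa7* and *Hoxa9* were higher than in mesenchymal cells, with ratios of 3.43 (2.69 to 4.34) and 3.85 (3.06 to 4.8). Unlike in mesenchymal cells, *Hoxa9* was not low at 3 dpi, at 23.5, 8.79, 27.9 and 24.2 CPM in the order of the libraries, a difference that was not tested. Mural cells (*Rgs5*, *Notch3*, *Myh11*, *Mcam*, *Cspg4* and *Ndufa4l2*), 122 in Uninjured muscle and 393 at 7 dpi, had a Hox sum of 328 and 283 CPM. *Hoxb2* was at 37.0 CPM from 38 UMIs and 34.9 CPM from 93 UMIs in them, above its mesenchymal level of 6.31 and 10.9 CPM.

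Schwann cells (with *Sox10*, *Cdh19*, *Mbp* and *S100b* among the markers) had a further pattern, with HoxB and HoxD members and few HoxA UMIs. Their Hox sum was 98.0, 146, 93.4 and 116 CPM in 232, 177, 147 and 175 cells. HoxB supplied 49.1% and HoxD 25.9% of 293 UMIs, and HoxA had 8, 6, 0 and 3 UMIs. *Hoxd8* was at 14.7, 40.1, 30.2 and 23.6 CPM and *Hoxb4* at 22.5, 24.6, 11 and 27.5 CPM. At 1 dpi the ratio to mesenchymal cells was 13.2 (9.49 to 18.2) for HoxB, 17.7 (9.78 to 30.9) for *Hoxb4* and 6.25 (4.14 to 9.15) for *Hoxd8*. *Hoxc10* had 0 UMIs there and was at least 12.7-fold lower. Keratinocytes were gated at 3 dpi only, with 33 cells and a Hox sum of 239 CPM.

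Blood cells held few Hox transcripts. The leading members before 7 dpi differed between granulocyte progenitors and the class of monocytes and macrophages. Granulocyte progenitors (*Mpo*, *Elane*, *Prtn3*, *Ctsg*, *Ms4a3* and *Cd34*), 161 cells at 1 dpi and 293 at 3 dpi, had a Hox sum of 47.4 CPM (40.3 to 55.5) and 58.3 CPM (50.9 to 66.6), of which HoxA supplied 69.9% and 80.0%. *Hoxa9* was at 16.7 and 22.3 CPM from 55 and 84 UMIs, 1.86 (1.37 to 2.49) and 3.08 (2.4 to 3.9) times the mesenchymal level, and *Hoxa7* was at 9.12 and 15.4 CPM. *Hoxb4* was at 8.51 and 5.57 CPM, with ratios of 6.14 (3.69 to 10.1) and 5.88 (3.35 to 9.96). In contrast, the limb gene *Hoxa10* had 3 and 7 UMIs in these cells. In thinned cells the *Hoxa9* ratio at 3 dpi was 1.75, short of 2-fold.

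Monocytes and macrophages (with *Csf1r*, *Cd68*, *Adgre1*, *Fcgr1* and *Ctss* among the markers), 327, 1779, 964 and 376 cells, had *Hoxb4* at 5.87, 6.59, 7.83 and 4.63 CPM, from 17, 95, 42 and 9 UMIs. The ratio to mesenchymal cells was 4.75 (3.3 to 6.93) at 1 dpi and 8.26 (5.35 to 12.7) at 3 dpi. *Hoxb3*, its neighbour, had 0, 29, 8 and 1 UMIs, and its ratio was 2.11 (1.22 to 3.61) at 1 dpi but 1.01 in thinned cells. *Hoxb2* had 0 UMIs in these cells at 1 and 3 dpi. A *Hoxb4* UMI was present in 4.5% of monocytes and macrophages at 1 dpi at a median of 7741 UMIs, and in 0.716% of T cells at a median of 4108. These members were not particular to monocytes and macrophages. Averaged over the libraries, *Hoxb4* was at 7.30 CPM in NK cells, 6.23 in monocytes and macrophages, 4.59 in B cells and 2.64 in T cells. *Hoxb3* was at 3.02 CPM in NK cells and 1.00 in monocytes and macrophages.

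At 7 dpi the immune classes had higher Hox sums than in the other libraries. The sum was 14.2, 12.6, 13.8 and 59.7 CPM in monocytes and macrophages, 23.3, 15.7, 26.5 and 76.5 CPM in T cells, 28.6, 20.7, 27.0 and 53.0 CPM in NK cells and 26.7, 22.2, 26.5 and 77.6 CPM in B cells. HoxC, the main cluster of mesenchymal cells in that library, supplied 39%, 13.7%, 14.9% and 51.7% of the Hox UMIs of monocytes and macrophages. In NK cells its share was 38.5%, 21.7%, 30.1% and 59.8%, and in B cells 25.0%, 29.2%, 11.5% and 61.1%. In T cells it was 48.6%, 49.0%, 31.6% and 44.2%, so the share was highest at 7 dpi in the other 3 classes and not in T cells. These shares rest on 13 to 182 UMIs each. Neutrophils had 15, 38, 33 and 33 Hox UMIs, of which HoxC supplied 12 in Uninjured muscle, while HoxB supplied 63.2% at 1 dpi. In monocytes and macrophages *Hoxc10* was at 1.38, 0.624, 1.49 and 10.8 CPM. The mesenchymal share of HoxC at 7 dpi was 57.2%, and the part of free RNA in the immune values was not tested. Any Hox member was detected in 81.7%, 77.1%, 63.4% and 55.7% of mesenchymal cells and in 4.0%, 4.30%, 4.45% and 8.5% of T cells. With each cell thinned to 1000 UMIs the shares were 20.9%, 21.6%, 18.5% and 21.9% for mesenchymal cells and 1.33%, 0.861%, 1.3% and 2.81% for T cells.

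Other genes of limb position and of Hox regulation were read as a list of 36 genes in mesenchymal cells. Of 34 with enough UMIs at 1 dpi, 2 were higher and 2 lower past 2-fold, of 34 at 3 dpi 3 and 4, and of 33 at 7 dpi 4 and 4, against 11.9%, 21.0% and 27.2% of all genes in either direction. The shares of the list were thus at or under the background. Their median log2 ratio was 0.27, -0.10 and 0.08. *Meis2*, a cofactor of Hox proteins, was at 48.7, 61.1, 44.9 and 50.7 CPM. *Pitx1*, the hindlimb determinant, was at 9.52, 7.27, 10.1 and 12.8 CPM. *Tbx5*, the forelimb determinant, was at 11.2, 6.87, 2.14 and 1.84 CPM, with a ratio of 0.192 at 3 dpi and 0.165 at 7 dpi. Its presence beside *Pitx1* in tibial muscle was not tested further. *Tbx5* was among the 4 genes of the list that were lower past 2-fold at 7 dpi. The list was chosen for limb position and Hox regulation, so a limb factor among them is no separate result. No reading of hindlimb against forelimb identity was made from *Pitx1* and *Tbx5*, and such identity was not tested. *Irx5* was at 1.67, 1.42, 1.16 and 11 CPM, a ratio of 6.57 at 7 dpi. The polycomb gene *Ezh2*, which keeps Hox genes silent, was at 11.1, 18.9, 29.2 and 29.3 CPM, and the trithorax gene *Kmt2a*, which keeps them active, was at 82.8, 93.5, 78.6 and 61.2 CPM. The list held further polycomb and trithorax genes, and these did not all move in the direction of *Ezh2* or *Kmt2a*. No shift of polycomb against trithorax genes is therefore read from this pair.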

How the data were processed

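Single cell libraries of tibial muscle from *Nse-Bmp4* mice were analysed, 1 each for Uninjured muscle and for 1, 3 and 7 dpi. The authors mapped reads with STAR in Cell Ranger 5.0.0 (build mm10) and deposited counts of UMIs, 1 matrix of genes by cells for each library. Seurat 3.1.1 is named in the submitters' processing notes. A down-sampling step is named in the labels, and neither its place relative to these matrices nor the use of strand is given in the sources used here. UMI totals were 91146335 to 129007669 per library.

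Cells within 2 SD of the library mean of log10 UMIs and log10 genes and with at most 10% mitochondrial UMIs were kept, and the 7.5% with the highest Scrublet doublet scores (scanpy 1.11.5) in each library were removed. A cell joined a class with UMIs of at least 3 of its 6 markers and of more than any other class. Non-immune classes needed 0 UMIs of *Ptprc*, chondrocyte-like and tenocyte-like cells at least 4 of 6 markers besides the mesenchymal gate, and subgates 2 of 3. UMIs were summed per class and library and scaled to CPM, with exact Poisson, Clopper-Pearson and conditional binomial 95% intervals (scipy 1.17.1). A gene was called past 2-fold with at least 50 UMIs over both sides, and 0 UMIs were set to 3 for a bound. Without replicates no test between libraries was made. For thinned values each cell was reduced to 1000 UMIs and shallower cells were left out. Other alternatives changed the quality limits, the gates, doublet removal and the scaling. Ratios, intervals and 2-fold calls were checked on Poisson counts simulated from the summed mesenchymal UMIs at 3 dpi and in Uninjured muscle. The intervals covered 93.0% of 200 planted changes, and neither gates nor summing were checked. These counts followed the same model as the intervals, so coverage near 95% was set in advance and says nothing on spread between libraries. The planted changes all lay well past 2-fold, so calls near that limit were not checked. Promoters came from RefSeq and positions from GENCODE, matched for 39 of 39 members. All members could be named by rule, and 1 member and some listed genes are not reported here. Other genes were named only as markers or from the list of 36. The members and lists were chosen with earlier results of these data known.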

Additional observations from a re-analysis of the deposited data

Results flagged for a closer look

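The non-coding genes of the Hox clusters are no members and entered no comparison of the report, and 7 of them had an interval above that of Uninjured muscle in mesenchymal cells of at least 1 injured library. *Hotairm1*, in the HoxA cluster, was at 7.25, 4.10, 3.11 and 10.2 CPM in Uninjured muscle and at 1, 3 and 7 dpi, so it was lower at 1 and 3 dpi. *Hoxa11os*, antisense to *Hoxa11*, was at 2.01 CPM in Uninjured muscle, 4.78 CPM at 1 dpi, 6.71 CPM at 3 dpi and 3.48 CPM at 7 dpi, beside 2.78, 5.36, 6.35 and 3.46 CPM for *Hoxa11*. In the same order *Hoxaas2* was at 0.348, 0.585, 0.303 and 0.747 CPM, and *Hoxaas3*, which lies over *Hoxa7*, at 0.489, 0.400, 0.246 and 1.13 CPM. *Hoxb3os*, over *Hoxb2* and *Hoxb3*, was at 1.02, 0.709, 0.303 and 1.91 CPM. *Hotair*, in the HoxC cluster, was at 0.747, 1.51, 0.644 and 1.04 CPM, and *Hoxd3os1* was at 1.06, 1.02, 1.76 and 4.15 CPM. Whether counting used the strand is not given, and if it did not, an antisense gene and its partner cannot be told apart where they overlap. Each value is from 1 library.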

How the results depend on the processing

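No paired analysis was possible because each time point was 1 library without replicate numbers. Of the alternative values of 16 main results, 104 stayed within the interval of the main value, or within 1.5 times for a count, and 21 moved. The summed mesenchymal Hox ratio at 1 dpi, 0.937 in the report, was 0.987 with quality limits on linear values, 0.827 with median-ratio scaling and 1.01 in thinned cells. At 3 dpi, 0.697 became 0.716, 0.648 and 0.863 in the same order and 0.662 with a gate on *Prrx1* and *Col1a1*. At 7 dpi, 1.07 became 1.10 with that gate, 1.04 with median-ratio scaling and 1.03 in thinned cells. The ratio of endothelial to mesenchymal cells at 3 dpi, 2.71, was 1.92 with median-ratio scaling and 2.09 thinned, and the chondrocyte-like ratio, 0.94, was 1.04 with median-ratio scaling. The ratio of HoxB between interstitial and adventitial cells, 0.494, was 0.628 with the *Prrx1* and *Col1a1* gate and 0.345 thinned. The HoxC share, 60.4%, was 68.0% per kb of exon, and the share of members 9 to 11, 60.4%, was 59.1% with the *Prrx1* and *Col1a1* gate and 61.8% per kb. Members past 2-fold in thinned cells were 4 at 3 dpi, 1 at 7 dpi and 1 in chondrocyte-like cells. Thinning leaves fewer UMIs and weights cells equally. Of 1457 alternative values of single members, 1305 stayed within the interval, 148 moved and 4, of members past 2-fold with an interval clear of 1, turned direction. These were *Hoxa6* at 3 dpi with 1.06, *Hoxb5* in chondrocyte-like cells with 0.496, *Hoxb7* in tenocyte-like cells with 1.34 and *Hoxd4* in tenocyte-like cells with 0, all in thinned cells, and the cause was not tested. Members inside the limit also crossed a ratio of 1 in thinned cells, such as *Hoxa5* at 3 dpi, from 0.818 to 1.48, *Hoxa11* in chondrocyte-like cells, from 0.825 to 1.52, and *Hoxd8* in tenocyte-like cells, from 1.64 to 0.808.

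One library per time point limits each comparison, and the intervals hold no animal spread. Endothelial cells numbered 22 to 116 per library, and mural and tenocyte-like cells 16 to 122 and 30 to 85 before 7 dpi. Depth per cell was lowest at 7 dpi, and gates name cells by markers, not by clusters.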

Other observations

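Mesenchymal cells that carried *Tbx5*, the forelimb determinant, were read separately as a description, a split chosen after its values were seen. They numbered 726, 174, 98 and 94 in the order of the libraries, and they were deeper, with a median of 9778 UMIs against 9068 in Uninjured muscle and 10664 against 3110.5 at 7 dpi. Limb identity was not tested, and none is read from the values that follow. In Uninjured muscle *Hoxc10* was at 44.8 CPM in cells with and 50.4 CPM in cells without a *Tbx5* UMI, a ratio of 0.889. *Hoxc11* was lower in the cells with *Tbx5*, with a ratio of 0.524 (0.364 to 0.734), and so was *Hoxa11*, with 0.459. *Hoxb4* had a ratio of 2.09 (1.41 to 3.01). The ratio for *Hoxc8* was 1.22, 1.71, 2.62 and 2.05 in the order of the libraries. Cells that carried *Pitx1*, the hindlimb determinant, numbered 602, 191, 419 and 608 and were deeper as well, with 15647 UMIs against 5253 at 3 dpi and 9068 against 3014 at 7 dpi. The ratio for *Hoxa11* in them was 2.53 (1.76 to 3.57), 1.91, 1.72 and 1.07.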
